A study of Mus musculus with 10 samples.

Results

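Keratins are the proteins of the intermediate filaments of epithelial cells and of hair, and each filament pairs a type II with a type I chain. In the mouse the type II genes lie side by side in a cluster on chromosome 15, with the type I gene Krt18 at its end. Krt71, Krt72, Krt73 and Krt74 belong to the inner root sheath, the layer that moulds the growing hair, whereas Krt5 is the type II keratin of basal cells of stratified epithelia, and Krt8 and Krt18 form the filaments of simple epithelia. These 7 genes were followed in oocytes lacking Patl2, a putative RNA-binding protein. Each of the 7 was annotated to 1 transcript cluster, the unit in which the array summarises the probes of a gene, among 65956 clusters measured. Krt71 and Krt73 were chosen by their higher array levels in Patl2-/- than in WT oocytes, so their values are given as a description with no test. The question was whether that difference extended to the other 5 genes and to the rest of the keratin cluster.

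Groups of pooled, denuded mouse oocytes were hybridised to Affymetrix Clariom D arrays. Patl2-/- (KO) oocytes labelled as MII, the stage of arrest in metaphase II after ovulation, gave 3 arrays and WT oocytes at MII gave 2. The paper reports that more ovulated oocytes were at stages before MII in Patl2-/- than in WT females. Whether such oocytes were kept out of the MII samples is not given in the sources used here, and their part in the results was not tested. KO oocytes at the GV stage, immature and still holding the large nucleus called the germinal vesicle, gave 3 arrays and WT oocytes at GV gave 2. The KO allele lacks exon 7 of Patl2 and carries a LacZ insertion. It was made by crossing C57BL/6NTac mice that carried the undeleted allele with EIIaCre mice. Their Cre is driven by an adenoviral promoter active in the early embryo, so the deletion is not limited to oocytes. The strain of the EIIaCre mice and of the WT females is not given in the sources used here. All females received 5 units of PMSG. GV oocytes, 20 to 32 per sample, were collected 44 h later, and MII oocytes, 28 to 46 per sample by the labels, 12 h by the labels after hCG given 48 h after PMSG. Each sample contributed 250 pg of RNA. By their titles the arrays are biological replicates, but which animals they came from is not given in the sources used here, and the p-values refer to the spread among these pools. In such pooled RNA, less of a transcript per cell and fewer cells that carry it cannot be told apart.

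The values are log2 RMA levels, the authors' background-corrected, quantile-normalized and summarised intensities. A difference of 1 is a doubling, and the number of arrays limits the precision. On each array, the 90th percentile of 5222 negative control probes lay between 6.14 and 6.46, and this range is used here as the background. Arrays of a group correlated at 0.989 to 0.994. Patl2 was at 6.44, 6.10 and 6.59 in KO MII oocytes, against 8.73 and 8.55 in WT MII oocytes, and at 7.71, 7.36 and 8.07 in KO GV oocytes, against 11.70 and 10.92 in WT GV oocytes. It was thus lower in every KO array than in both WT arrays of its stage, although which probes of its cluster lie in exon 7 is not given in the sources used here. The hybridisation controls, spiked-in transcripts, also differed between genotypes. Their mean was 11.58 to 11.69 in KO MII, 11.34 to 11.39 in WT MII, 11.71 to 11.98 in KO GV and 11.25 to 11.46 in WT GV arrays, and the part of this shift in the results was not tested.

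The promoters of Krt71 and Krt73, the genes that stood out, are shown with that of Krt72, which lies between them and changed little. Each stretch runs from 250 bases before to 50 after the RefSeq gene start (GRCm38.p6, minus strand). Capitals mark runs of at least 8 bases shared by Krt71 and Krt73, and, in Krt72, runs shared with Krt71.
Krt71, chr15:101743048-101743347: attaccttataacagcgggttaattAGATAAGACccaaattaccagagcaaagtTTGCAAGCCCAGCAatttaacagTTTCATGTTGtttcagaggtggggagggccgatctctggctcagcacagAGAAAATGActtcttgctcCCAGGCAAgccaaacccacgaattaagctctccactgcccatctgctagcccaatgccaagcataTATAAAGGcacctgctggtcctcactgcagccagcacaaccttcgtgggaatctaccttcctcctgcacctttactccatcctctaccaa
Krt73, chr15:101802311-101802610: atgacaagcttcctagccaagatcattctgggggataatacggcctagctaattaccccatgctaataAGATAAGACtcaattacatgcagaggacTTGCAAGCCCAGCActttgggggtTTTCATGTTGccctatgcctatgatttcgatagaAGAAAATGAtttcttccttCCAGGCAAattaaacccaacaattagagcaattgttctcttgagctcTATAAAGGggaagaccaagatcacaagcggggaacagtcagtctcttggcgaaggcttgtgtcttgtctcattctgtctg
Krt72, chr15:101786471-101786770: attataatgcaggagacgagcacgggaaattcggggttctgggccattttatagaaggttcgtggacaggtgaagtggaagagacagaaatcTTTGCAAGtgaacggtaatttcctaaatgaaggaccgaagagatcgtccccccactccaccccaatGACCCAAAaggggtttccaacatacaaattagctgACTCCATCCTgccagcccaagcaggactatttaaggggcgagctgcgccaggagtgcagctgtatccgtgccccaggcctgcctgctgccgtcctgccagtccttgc

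The Krt71 and Krt73 promoters shared 6 such runs, which stood in the same order in both and covered 58 bases. The longest, TTGCAAGCCCAGCA, began 196 bases before the start of Krt71 and 154 before that of Krt73, and occurred on either strand in 2 of 32851 promoters, these 2. The run AGATAAGAC, which holds the GATA-family motif AGATAA, occurred in 0.158% of promoters and also in that of Krt8. Searched on both strands, AGATAA was found in the promoters of Krt71, Krt73 and Krt8, but not of Krt72, Krt5 or Krt18, and also in those of Krt2, Krt76 and Krt79, 6 of the 17 promoters of the cluster, and in 11.2% of all promoters. The last shared run, TATAAAGG, began 40 bases before the start of Krt71 and 30 before that of Krt73, occurred also in the promoters of Krt76 and Krt8, and holds the TATA box TATAAA, which is in 13.6% of all promoters. On either strand TATAAA was in 7 of the 17 promoters of the cluster, that of Krt72 among them. The Krt72 and Krt73 promoters shared 0 runs of 8 bases, and Krt71 and Krt72 shared 3. Such sharing also occurs elsewhere in the cluster. Aligned end to end, the Krt71 and Krt73 promoters were 52.2% identical, a value reached by 23 of the 135 other pairs among the 17 promoters listed. Among those pairs were Krt71 and Krt72 (52.6%) and Krt71 and Krt76 (56.5%, the highest). The Krt71 and Krt76 promoters also shared 6 runs, which covered 51 bases. Krt84 and Krt82 also shared a run of 14 bases, and the pair of Krt79 and Krt8 had 65 bases in shared runs. No promoter of Krt74 was listed. These matches are a description of sequence and do not show that a factor binds.

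Krt73, an inner root sheath keratin, was above background on all 10 arrays and separated the genotypes at both stages. At MII its level was 11.40, 11.89 and 11.53 in KO oocytes, against 8.54 and 9.72 in WT oocytes. At GV it was 9.50, 10.25 and 9.73 in KO oocytes, against 7.48 and 8.39 in WT oocytes. Every KO array thus exceeded both WT arrays of its stage. The difference was 2.48 ± 0.40 (SE) at MII, 5.57-fold, and 1.89 ± 0.40 at GV, 3.72-fold. Leaving out any array kept these between 1.89 and 3.07 at MII and between 1.44 and 2.35 at GV. By group mean the order was KO MII (11.6), KO GV (9.83), WT MII (9.13) and WT GV (7.94). KO GV and WT MII arrays overlapped, and the higher WT GV array (8.39) lay just below the lower WT MII array (8.54). The SD was 0.25 in KO MII, 0.84 in WT MII, 0.38 in KO GV and 0.65 in WT GV oocytes.

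Krt71, expressed throughout the inner root sheath, showed its difference mainly at MII. Its level at MII was 9.02, 9.29 and 8.52 in KO oocytes, against 6.13 and 7.03 in WT oocytes, where the lower array was below background. At GV it was 7.29, 7.61 and 7.22 in KO oocytes, against 6.65 and 7.02 in WT oocytes. The groups did not overlap at either stage, although at GV the lowest KO and highest WT arrays were close. The difference was 2.37 ± 0.30 (SE) at MII, 5.16-fold, and 0.54 ± 0.30 at GV, 1.45-fold. Without a single array it ranged from 1.92 to 2.81 at MII and from 0.36 to 0.72 at GV. The group means were ordered KO MII (8.94), KO GV (7.37), WT GV (6.83) and WT MII (6.58), and the arrays of the last 2 groups overlapped.

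**Figure D1:**
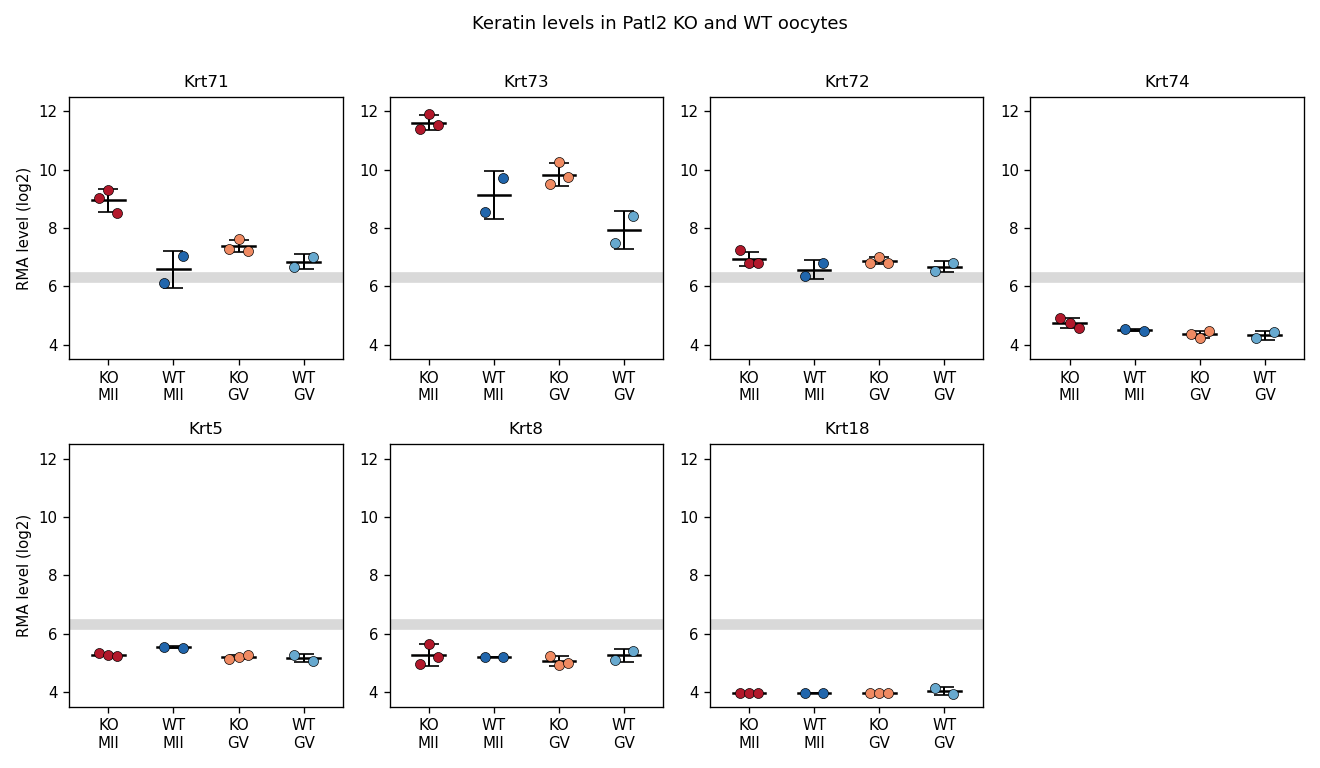
RMA level (log2) of the 7 keratins in KO MII, WT MII, KO GV and WT GV oocytes. Points are arrays (3 per KO group, 2 per WT group), bars the mean ± SD, and the grey band the 90th percentile of the negative controls over the arrays (6.14 to 6.46). Krt73 and Krt71 separated KO from WT at both stages, whereas Krt74, Krt5, Krt8 and Krt18 lay below the band on all arrays.

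The pair was also compared between MII and GV, and a difference between the 2 genes was not tested. All samples contributed the same amount of RNA and were brought to a common distribution. The paper reports less RNA per oocyte at MII than at GV. Differences between the stages, here and elsewhere, are thus relative to the RNA measured, and amounts per oocyte were not tested. In KO oocytes, Krt73 was 1.78 ± 0.36 (SE) and Krt71 1.57 ± 0.27 higher at MII than at GV. In WT oocytes, Krt73 was 1.19 ± 0.44 higher at MII, and Krt71 was 0.26 ± 0.33 lower, a difference whose sign was not stable (-0.29 to 0.02 over the alternative settings). Without WT MII replicate 1 the Krt71 difference was 0.19 and without WT MII replicate 2 it was -0.71, and that of Krt73 was 1.78 and 0.60 without these arrays. The genotype effect at MII minus that at GV was 1.83 ± 0.43 for Krt71 and 0.58 ± 0.57 for Krt73, and that for Krt73 ran from -0.01 to 1.17 when single arrays were left out. Across the 10 arrays, Krt71 and Krt73 correlated at 0.914, a description in which the group differences are shared.

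Krt72, the keratin of the inner root sheath cuticle whose gene lies between those of Krt71 and Krt73, was measured a little above background on 9 of 10 arrays, the exception being the WT MII array at 6.34, so its differences may be compressed too. It was at 7.23, 6.80 and 6.80 in KO MII oocytes, against 6.34 and 6.80 in WT MII oocytes, and at 6.80, 7.01 and 6.80 in KO GV oocytes, against 6.53 and 6.80 in WT GV oocytes. The same level, 6.80, was thus returned by 6 of the 10 arrays, and the genotypes overlapped at both stages. The difference was 0.37 at MII (95% confidence interval -0.05 to 0.79, adjusted p = 0.479) and 0.21 at GV (-0.22 to 0.63, adjusted p = 0.838, limma with Benjamini-Hochberg adjustment over all clusters, two-sided, as below). The upper bounds lie below the difference measured for Krt73 at each stage and below that for Krt71 at MII (2.37). The bound at GV lies above that for Krt71 (0.54). Krt71 and Krt73 were chosen for their differences, and the bounds do not include the spread of those 2 genes. This is therefore a description, and a difference between the genes was not tested.

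Krt74, which RefSeq lists as a transcribed pseudogene in the mouse, lay below background on all 10 arrays. Its level was 4.91, 4.73 and 4.59 in KO MII oocytes, against 4.53 and 4.47 in WT MII oocytes, and 4.37, 4.21 and 4.47 in KO GV oocytes, against 4.22 and 4.43 in WT GV oocytes. All KO arrays were above both WT arrays at MII by a narrow margin, and the genotypes overlapped at GV. The difference was 0.24 at MII (-0.04 to 0.52, adjusted p = 0.489) and 0.03 at GV (-0.25 to 0.31, adjusted p = 0.984). In KO oocytes it was 0.39 higher at MII than at GV (adjusted p = 0.0606), which passed the threshold after 3 rescalings of the arrays (lowest adjusted p = 0.0273).

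Krt5, the basal cell keratin that pairs with Krt14, was likewise below background throughout, at 5.32, 5.26 and 5.22 in KO MII, 5.55 and 5.51 in WT MII, 5.14, 5.21 and 5.25 in KO GV and 5.25 and 5.06 in WT GV oocytes. At MII it was lower in all KO arrays than in both WT arrays, by -0.26 (-0.44 to -0.08, adjusted p = 0.210), and at GV the difference was 0.04 (-0.14 to 0.23, adjusted p = 0.940). It was the only one of the 5 members other than Krt71 and Krt73 called in a comparison, being 0.38 higher at MII than at GV in WT oocytes (adjusted p = 0.0374), where 7.15% of all clusters were called. That call was lost when any of 8 arrays was left out, and remained without WT GV replicate 1 or KO GV replicate 1.

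Krt8 and Krt18, the filament pair of simple epithelia, were below background on every array. Krt8 was between 4.93 and 5.66 on the 10 arrays, with a mean of 5.27 ± 0.36 in KO MII (SD, n = 3), 5.19 ± 0.01 in WT MII (n = 2), 5.06 ± 0.17 in KO GV (n = 3) and 5.25 ± 0.22 in WT GV oocytes (n = 2). Krt18 was at 3.95 on 7 arrays and between 3.94 and 4.12 on all. The difference in Krt8 was 0.07 at MII (-0.39 to 0.54, adjusted p = 0.947) and -0.19 at GV (-0.66 to 0.27, adjusted p = 0.872). That in Krt18 was -0.01 at MII (-0.16 to 0.15, adjusted p = 0.994) and -0.08 at GV (-0.24 to 0.08, adjusted p = 0.827). Levels near background compress differences, so a change in a transcript present at low amount may have gone undetected for Krt74, Krt5, Krt8 and Krt18.

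Among these 5 members, limma called 0 between genotypes at MII, at GV and over both stages, where it called 0.829%, 0.121% and 1.89% of all clusters. At an unadjusted p under 0.05 there was 1 at MII (Krt5, lower in KO), where 12.3% of all clusters were, and 0 at GV, where 9.23% were. The methods' own test, after Benjamini-Hochberg adjustment, called 0 of the 5 at either stage. Of all 65956 clusters it called 10 at MII and 3 at GV, so 0 among 5 says little. With every KO array above both WT arrays there was 1 of the 5 at MII (Krt74), where 11.7% of all clusters were so ordered, and 0 at GV, where 11.8% were. With every KO array below both WT arrays there was 1 at MII (Krt5), against 16.2% of all clusters, and 0 at GV, against 9.17%. The median difference of the 5 was 0.07 at MII and 0.03 at GV, beside -0.02 and 0.02 over all clusters. In KO maturation 0 of the 5 were called, where 10.5% of all clusters were.

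The walk along the cluster extends this to the genes on either side. In RefSeq (GRCm38.p6) 33 genes and pseudogenes lie from Krt80 to Krt18, and 32 of them were measured in 29 transcript clusters, 2 of which are shared by several keratins (Krt87, Krt81 and Krt83 in 1, Krt6a and Krt6b in the other) and cannot separate them. Of the 27 clusters other than those of Krt71 and Krt73, 0 were called between genotypes at MII or at GV. The shares over all clusters were 0.829% and 0.121%, so 0 calls among 27 says little. At an unadjusted p under 0.05 there were 3 at each stage (12.3% of all clusters at MII and 9.23% at GV). Over both stages 1, Krt84, was called, where 1.89% of all clusters were. The immediate neighbours of the members were flat. Krt6a and Krt6b, keratins of the companion layer and of wounded epidermis that lie next to Krt5, differed by -0.03 at MII and -0.08 at GV (adjusted p = 0.964 and 0.883). Krt2, an epidermal keratin next to Krt73, differed by 0.00 at MII and -0.01 at GV, and Krt78, next to Krt8, by -0.06 and -0.04. These genes were below background on all arrays. By group mean, 22 of the 27 clusters did not exceed it in any group, beside 49364 of all 65956 clusters.

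**Figure D2:**
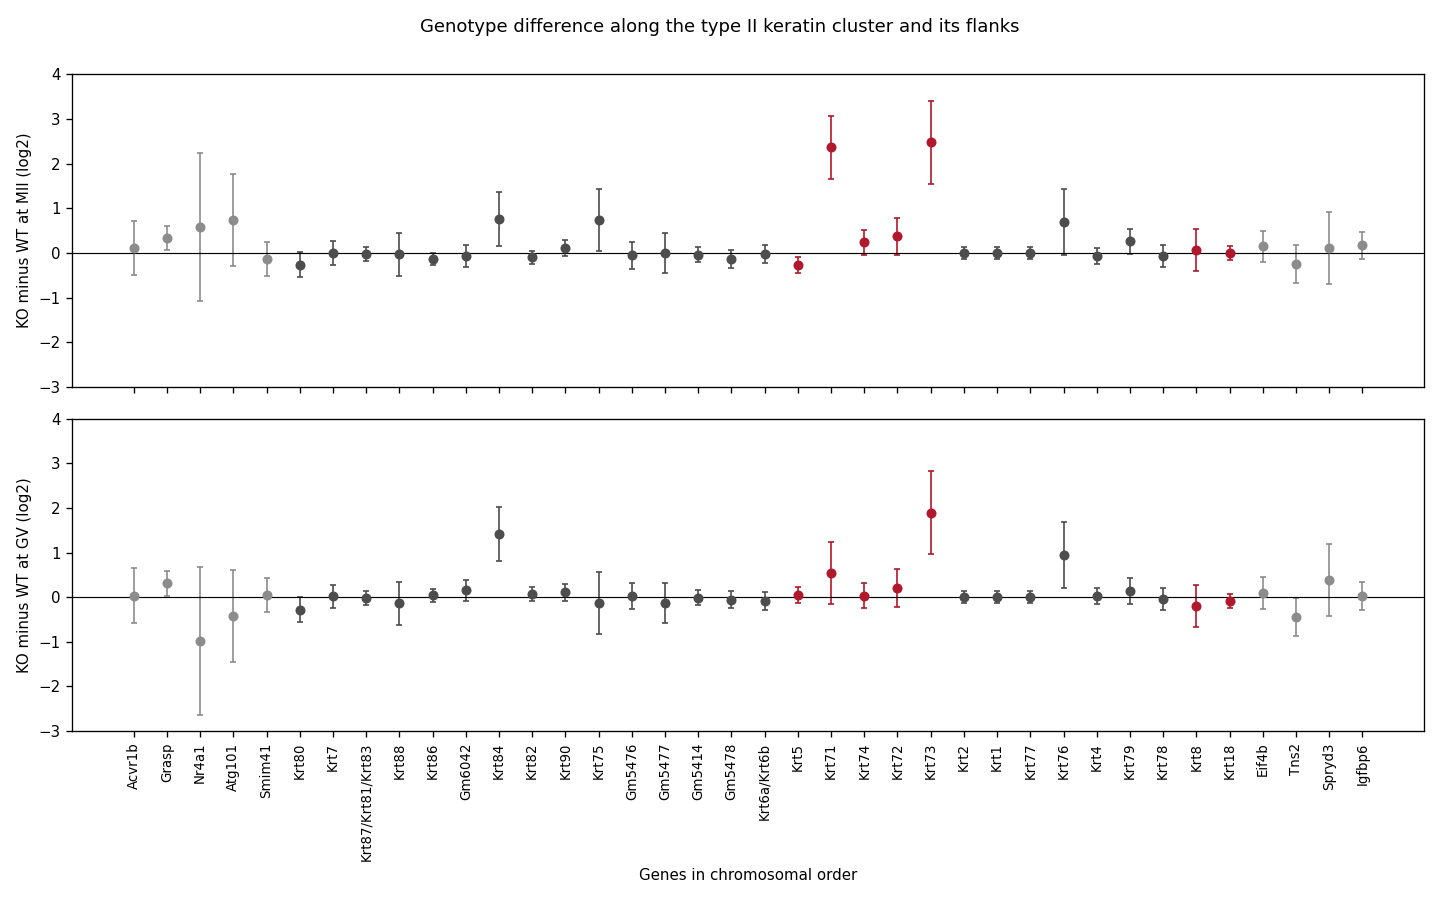
Difference between KO and WT oocytes (log2) at MII (top) and at GV (bottom) for each transcript cluster along the type II keratin cluster, in RefSeq gene order. Points are limma estimates with 95% confidence intervals, in red for the 7 members, in black for other genes of the cluster and in grey for the flanking genes. Krt71 and Krt73 were chosen for this difference, so their intervals describe the spread among arrays and are not a test. Krt71 and Krt73 stand at 2.37 and 2.48 at MII, with Krt74 (0.24) and Krt72 (0.37) between them.

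Krt84, a hair-type keratin 12 positions before Krt71 in the gene order, was the 1 of the 27 clusters called over both stages. Unlike those of Krt71 and Krt73, its measured difference was larger at GV than at MII. It was above background on all 10 arrays, at 9.12, 9.32 and 9.94 in KO MII oocytes, against 8.54 and 8.88 in WT MII oocytes, and at 8.99, 8.78 and 8.89 in KO GV oocytes, against 7.78 and 7.15 in WT GV oocytes. KO arrays exceeded WT arrays at both stages. The difference was 0.75 ± 0.26 (SE) at MII (1.69-fold, adjusted p = 0.281) and 1.42 ± 0.26 at GV (2.68-fold, adjusted p = 0.107). Neither passed alone after adjustment. At the threshold of the methods, a change of at least 2-fold with an unadjusted p under 0.05, Krt84 was among 321 clusters that passed at GV and was not among the 776 at MII. Over both stages Krt84 was 1.09 ± 0.19 higher in KO oocytes (2.13-fold, adjusted p = 0.0311, limma). This call was lost when any of 7 arrays was left out (adjusted p of up to 0.116) and with the replicate block (adjusted p = 0.119). In WT oocytes Krt84 was 1.24 ± 0.29 higher at MII than at GV (adjusted p = 0.0391), which 7 left-out arrays also undid, and in KO oocytes 0.57 ± 0.24 higher (adjusted p = 0.191). Its genotype effect was smaller at MII than at GV, by -0.67 ± 0.37, a difference that did not pass (adjusted p = 0.868).

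Krt76 and Krt75 were singled out after their values were seen. Krt76, a keratin of the hard palate and gum 4 positions after Krt73, was at 8.18, 7.61 and 7.66 in KO MII oocytes, against 6.99 and 7.25 in WT MII oocytes, and at 7.92, 8.93 and 7.89 in KO GV oocytes, against 7.18 and 7.44 in WT GV oocytes. No KO array overlapped with a WT array of its stage, yet the difference did not pass at MII (0.69, adjusted p = 0.448), at GV (0.94, adjusted p = 0.394) or over both (0.82, adjusted p = 0.136). Krt75, the keratin of the companion layer of the hair follicle, was at 6.62, 7.07 and 5.94 in KO MII oocytes, against 5.57 and 6.05 in WT MII oocytes, and at 5.74, 5.36 and 5.62 in KO GV oocytes, against 5.73 and 5.68 in WT GV oocytes. It was above background on 2 KO MII arrays only, and its difference at MII was 0.73 (adjusted p = 0.372). Besides Krt71 and Krt73, Krt84 and Krt76 were the clusters from Krt80 to Krt18 with all KO arrays above all WT arrays at both stages. They were 2 of 27 (7.41%), a pattern shown by 2.88% of all clusters. Only 5 of the 27, these 2 among them, exceeded background in any group mean. The pattern was shown by 7.66% of clusters with a mean level of 7 to 10, a set not comparable with the 27.

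**Figure D3:**
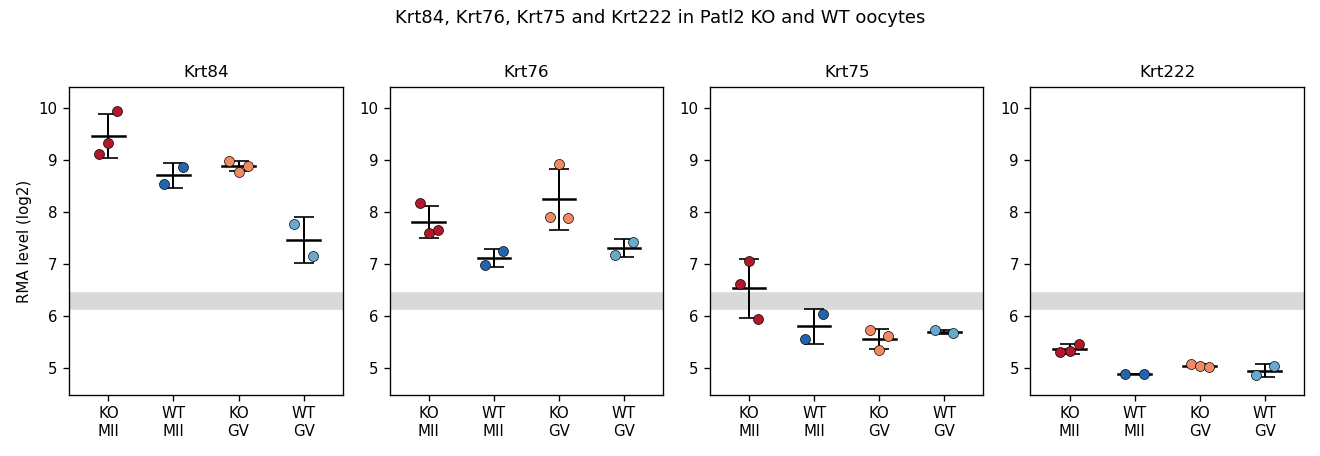
RMA level (log2) of Krt84, Krt76, Krt75 and of the type I keratin-like gene Krt222 in KO MII, WT MII, KO GV and WT GV oocytes. Points are arrays, bars the mean ± SD and the grey band the negative control range (6.14 to 6.46). KO arrays of Krt84 and Krt76 lay above WT arrays at both stages, and Krt222 stayed below the band.

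Over the 21 measured type II keratin clusters without Krt71 and Krt73, the median difference was 0.00 at MII and 0.02 at GV, and single differences ran from -0.26 to 0.75 at MII and from -0.29 to 1.42 at GV. Of them, 16 did not exceed background in any group mean, where 49364 of all 65956 clusters did not. For the genotype effect at MII minus that at GV, 0 of these and 0 of all clusters were called (0%), with 1 of the 21 at an unadjusted p under 0.05 (Krt5), against 5.99% of all clusters.

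Of the genes flanking the keratin cluster, none was called between genotypes. Of the 5 protein-coding genes on either side, 9 had a cluster, and 6 of these exceeded background in some group. Between genotypes, limma called 0 at MII and at GV, where it called 0.829% and 0.121% of all clusters. At an unadjusted p under 0.05 there were 1 and 2 (12.3% and 9.23% of all clusters). Every KO array was above both WT arrays in 4 of the 9 at MII, against 11.7% of all clusters and 22.6% of those with a mean level of 7 to 10, and in 1 at GV, against 11.8% and 14.1%. Eif4b, a translation initiation factor next to Krt18, had 13.48, 13.54 and 13.52 in KO MII, against 13.24 and 13.49 in WT MII oocytes, a difference of 0.15 (-0.21 to 0.50, adjusted p = 0.795), and one of 0.09 at GV (adjusted p = 0.943). The activin receptor Acvr1b differed by 0.12 at MII and 0.04 at GV, and Spryd3 by 0.12 and 0.39. The autophagy factor Atg101 differed by 0.73 at MII (-0.30 to 1.76, adjusted p = 0.586) and -0.42 at GV (-1.45 to 0.61, adjusted p = 0.876). The remaining flanking genes, Grasp, Nr4a1, Smim41, Tns2 and Igfbp6, ran from -0.24 to 0.58 at MII and from -0.98 to 0.31 at GV.

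**Figure D4:**
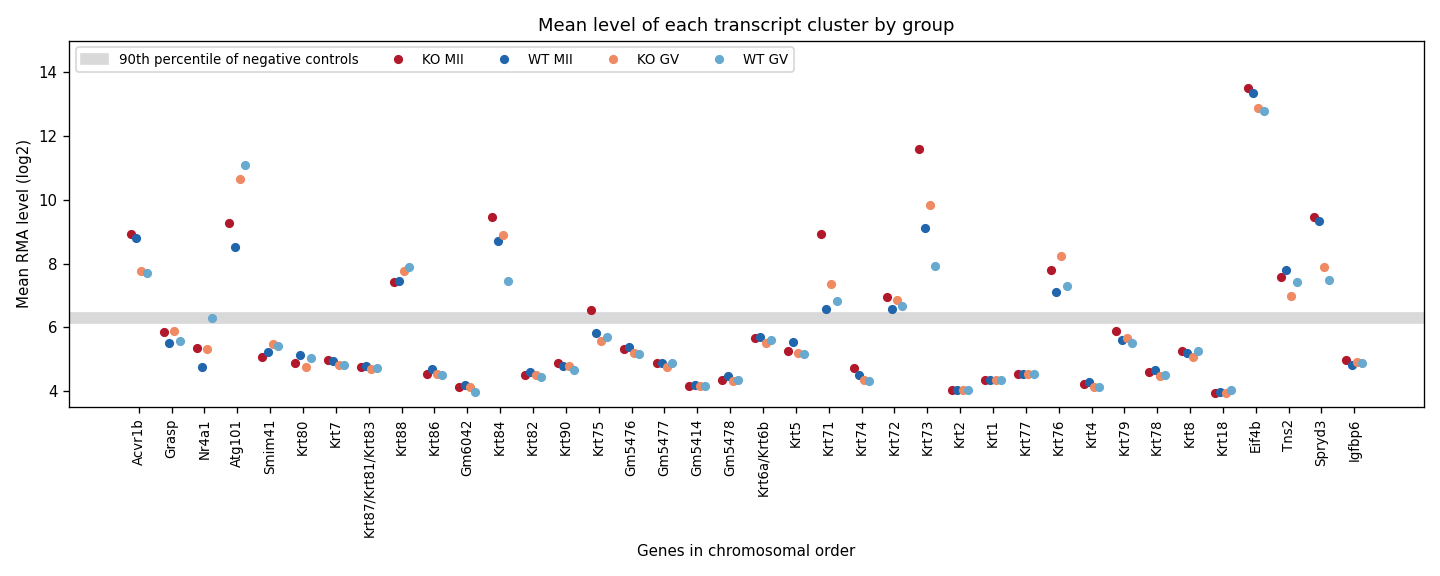
Mean RMA level (log2) of each transcript cluster along the type II keratin cluster and its flanks, in RefSeq gene order, with 1 point per group (KO MII, WT MII, KO GV, WT GV). The grey band marks the negative control range (6.14 to 6.46), and most keratins lie under it, in contrast to Krt73, Krt84, Krt76, Krt88, Krt71 and Krt72, to Krt75 in KO MII oocytes and, among the flanks, to Eif4b, Atg101, Acvr1b, Spryd3 and Tns2.

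Genes whose pattern was most like the mean of Krt71 and Krt73 were sought among single-gene clusters with a mean level of at least 6, as a description. The 5 with the highest Pearson correlation over the 10 arrays were Ccdc120 (0.986), Dusp14, a dual-specificity phosphatase (0.983), Unc13c, a priming factor of vesicle release (0.976), Idua, a lysosomal iduronidase (0.976), and Fam189a1 (0.970), none of them a keratin. Ccdc120 had 11.18, 11.82 and 11.54 in KO MII oocytes, against 9.75 and 10.34 in WT MII oocytes, and 10.43, 10.68 and 10.39 in KO GV oocytes, against 9.62 and 9.88 in WT GV oocytes. It differed by 1.47 at MII and 0.75 at GV, Fam189a1 by 1.10 and 0.76, Idua by 0.80 and 0.28, Dusp14 by 0.58 and 0.28, and Unc13c by 0.24 and 0.18. At MII these differences were below those of Krt71 and Krt73, whereas at GV those of Fam189a1 and Ccdc120 exceeded that of Krt71 (0.54). Idua was above background on 4 of 10 arrays and on 0 WT arrays, so its differences are compressed. Of the other members, Krt72 and Krt74 correlated with Krt73 at 0.637 and 0.682, Krt8 at 0.13, Krt5 at -0.02 and Krt18 at -0.56. All 5 spanned at most 0.88 over the arrays, Krt74, Krt8, Krt5 and Krt18 were below background on all of them, and Krt72 had the same level on 6, so little can be read from these values.

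**Figure D5:**
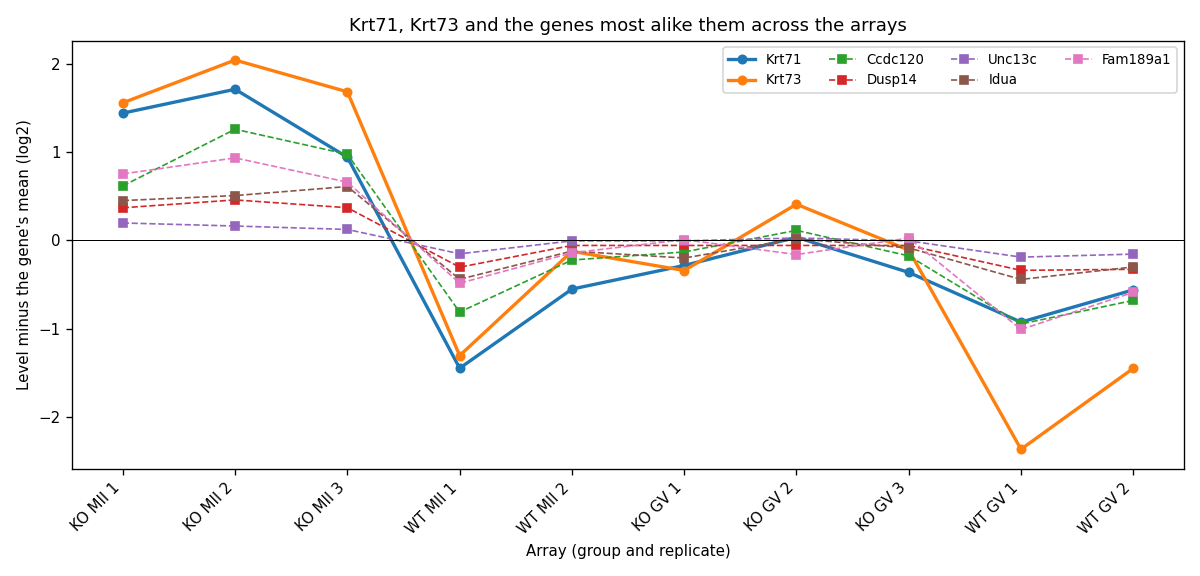
Level of Krt71, Krt73 (solid lines) and the 5 genes most like them (dashed lines) on each of the 10 arrays, as the difference from the mean of the gene (log2). The genes were chosen for this pattern. All 7 were highest on the 3 KO MII arrays and lowest on WT arrays, with a wider range in Krt73 and Krt71.

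Markers of hair follicle, epidermis and other cells were examined beside these results. Of 24 epidermal and hair follicle genes, 22 did not exceed background in any group mean, where 49364 of all 65956 clusters did not. The mean level of the list was 4.60 to 4.65 in KO MII and 4.62 in both WT MII arrays. At GV it was 4.62 to 4.66 in KO and 4.62 to 4.67 in WT arrays. Tchh, the trichohyalin of the inner root sheath, reached at most 4.13, Gata3, a factor of that layer, 5.51, and Foxn1, a factor of hair differentiation, 4.43. The inner root sheath type I keratins Krt25, Krt27 and Krt28, partners of Krt71 to Krt74 in the hair, reached at most 6.03, 5.29 and 4.35 and were below background on every array. Trp63, which marks basal cells and is also expressed by oocytes, was above background on all arrays. Of 22 granulosa and cumulus genes, 14 did not exceed background. The mean level of that list was 5.30 to 5.70 in KO MII, 5.15 to 5.26 in WT MII, 5.74 to 5.84 in KO GV and 5.41 to 5.84 in WT GV arrays, higher in KO at MII. Its largest difference was in Inha, the inhibin alpha subunit, 1.92 at MII (-0.50 to 4.33, adjusted p = 0.532) and 1.17 at GV (adjusted p = 0.840). The part of follicular RNA in the levels of Krt71 and Krt73 was not tested. The 12 oocyte genes averaged 14.06 to 14.22 in KO MII and 13.83 to 13.89 in WT MII arrays. At GV they averaged 14.59 to 14.64 in KO and 14.55 to 14.64 in WT arrays. Every KO array was above both WT arrays at MII in 6 of the 12, and in 6 of the 22 granulosa and cumulus genes, against 11.7% of all clusters. Every KO array was below both in 1 and 0, against 16.2%.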

How the data were processed

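RNA of pooled mouse oocytes was measured on 10 Clariom D arrays. Per the labels and the methods, the authors labelled 250 pg of RNA with the WT pico kit and processed all arrays together by RMA in Affymetrix Expression Console, so the deposited values are log2 levels, corrected for background, brought to 1 common distribution and summarised over probes. The genome build of the files is not given in the sources used here, and RefSeq (GRCm38.p6) served for gene order and promoters. Of 72688 features, 6732 controls were left out and 65956 transcript clusters tested, of which 30638 carried 1 gene name, 2176 several and 33142 none.

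A gene was represented by its cluster with the highest mean. limma 3.58.1 (R 4.3.3) was fitted with 1 mean per group to all arrays (6 residual and 2.02 prior degrees of freedom), with Benjamini-Hochberg adjustment over all clusters, and clusters with an adjusted p under 0.05 were called. The fit was tested on simulated data. Members and lists were chosen with earlier results of these data known. Named genes were the 7 members, keratins next to them, other keratins and 5 flanking genes per side if called, differing by at least 1 with an unadjusted p under 0.05, or with a mean of at least 8, the 5 genes most like Krt71 and Krt73, and at most 3 genes per other list. Promoters were aligned with Biopython 1.88 (match 1, mismatch -1, gap -2 and -0.5), and figures drawn with matplotlib.

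The settings varied were a block for the replicate number, a further quantile normalization, median centring, cyclic loess, a mean level of at least 6, eBayes with trend and robust estimation (statmod 1.5.0), array weights, only the 2 groups compared, the ANOVA of the methods, a gene's clusters averaged, and leaving out each array. With 1 array left in a group, that array was assumed to vary like the others.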

Additional observations from a re-analysis of the deposited data

How the results depend on the processing

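Among keratins other than Krt71 and Krt73, 1 was called between genotypes at MII (Krt222), and 0 with the replicate block, a mean level of at least 6, eBayes with trend and robust estimation, only the 2 groups compared, or the methods' ANOVA, and 0 to 1 without single arrays. At GV, where 0 were called, 1 was with a mean level of at least 6 (Krt84, adjusted p = 0.0464). Over both stages 1 was called (Krt84), but 0 with the replicate block, 2 with quantile normalization once more, cyclic loess or a mean level of at least 6, and 0 to 1 without single arrays. For maturation of KO oocytes 1 was called (Krt222), but 0 with the replicate block, the mean level of at least 6 or the methods' ANOVA, 2 with median centring or only the 2 groups, 3 with cyclic loess, 4 with quantile normalization once more, and 0 to 2 without single arrays. For maturation of WT oocytes 2 were called (Krt5, Krt84), but 0 with the replicate block, only the 2 groups or the methods' ANOVA, 1 with median centring, a mean level of at least 6 or eBayes with trend and robust estimation, and 0 to 3 without single arrays. Deviations of same-numbered samples correlated at -0.04 to 0.18 over 13 pairs, with 3 over 0.1, among them both KO and WT pairs at GV (0.134 and 0.112), and no label ties a number to a shared animal or day. Pairing was therefore not established. With the block, calls over all clusters were 53 at MII and 1 at GV, and the cause of the calls lost with the block was not tested. Over all clusters, calls at MII ran from 0 to 1153 around 547, at GV from 0 to 216 around 80, over both stages from 308 to 2349 around 1246, for KO maturation from 2256 to 9734 around 6934 and for WT maturation from 9 to 7522 around 4719.

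Signs turned in the following differences. Without single arrays the difference at GV ran from -0.0738 to 0.136 for Krt74, -0.0523 to 0.142 for Krt5, -0.171 to 0.0118 for Krt18, -0.127 to 0.198 for Acvr1b, -1.05 to 0.207 for Atg101 and -0.0556 to 0.227 for Eif4b, and at MII from -0.122 to 0.236 for Krt8, -0.0906 to 0.373 for Acvr1b and -0.00753 to 0.233 for Spryd3. Krt18 at MII (-0.01) was 0.0103 with quantile normalization once more, 0.0181 with median centring and 0.0121 with cyclic loess, and Krt75 at GV (-0.13) was 0.00711 with the replicate block.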

Other observations

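Type I keratins, the partners of the type II chains, were mostly below background. Of 28 clusters, 27 did not exceed background in any group mean, where 49364 of all 65956 clusters did not. The exception was Krt12, the keratin of the corneal epithelium, at 7.33 to 8.43, which is named after its values were seen. The median difference between KO and WT oocytes was -0.03 at MII and 0.01 at GV. Krt222 was called at MII, at 5.32, 5.33 and 5.48 in KO oocytes against 4.89 and 4.90 in WT oocytes (0.48 ± 0.08, SE, adjusted p = 0.0454), below background on all arrays, and the call was lost when any of 8 arrays was left out. At GV it differed by 0.10 (adjusted p = 0.819) and over both stages by 0.29 (adjusted p = 0.0503), and in KO oocytes it was 0.32 higher at MII than at GV (adjusted p = 0.0278).

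Of 48 keratin-associated protein genes, which build the matrix of the hair shaft, 46 did not exceed background, where 49364 of all 65956 clusters did not. Between genotypes, limma called 0 at either stage, where it called 0.121% of all clusters at GV and 0.829% at MII. At an unadjusted p under 0.05 there were 2 at GV and 7 at MII, where 9.23% and 12.3% of all clusters were. Of 14 genes of desmosomes and keratin linkers, 0 were called between genotypes at either stage. At an unadjusted p under 0.05 there were 2 at MII and 0 at GV, against the same shares of all clusters. Of 15 other intermediate filament genes, 0 were called between genotypes at either stage. Over both stages 1 was called, where 1.89% of all clusters were. This gene, Ina, the neuronal alpha-internexin, was at 12.46, 12.97 and 12.56 in KO MII oocytes, against 13.58 and 13.56 in WT MII oocytes, and at 10.83, 11.17 and 11.46 in KO GV oocytes, against 12.53 and 12.71 in WT GV oocytes. It was lower in KO oocytes over both stages by -1.19 ± 0.14 (SE, adjusted p = 0.0104), by -0.91 at MII (adjusted p = 0.0975) and by -1.47 at GV (adjusted p = 0.0524). Of 14 epithelial genes, 9 did not exceed background in any group mean. Between genotypes 1 of the 14 was called at MII and 0 at GV, against 0.829% and 0.121% of all clusters. Their median difference at MII was 0.01, with single differences from -0.23 to 1.46. At GV single differences ran from -0.79 to 0.30. The gene called, the tight junction gene Cldn4, was at 10.70, 11.09 and 10.67 in KO MII oocytes, against 9.28 and 9.42 in WT MII oocytes. It was higher in KO oocytes at MII by 1.46 ± 0.22 (adjusted p = 0.0348), with 0.26 at GV (adjusted p = 0.824). The call at MII was lost when any of 8 arrays was left out and under 3 other settings (adjusted p of up to 0.297).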
